A study of Rattus norvegicus with 8 samples.

Results

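The 10 genes described here are immediate early genes known to respond to cAMP: Nr4a1, Nr4a2, Nr4a3, Fos, Fosb, Junb, Egr1, Crem, Per1 and Dusp1. They were taken by gene symbol, as every probe set annotated to 1 of these names, which gave 20 probe sets for 10 of the 14218 genes named on the array. Of these, 18 probe sets, with at least 1 for each gene, were bright enough to be tested. The data come from 8 single-colour Affymetrix rat arrays of FRTL-5 cells (sub-clone SB5), a rat thyroid follicular line. Human TSH receptor was expressed stably, as wild type in 1 line and as L629F, a mutant known to signal constitutively, in the other. Each line was given 1 mM sodium iodide or, as the salt control, 1 mM sodium chloride, with 2 arrays for each of the 4 groups. All 8 samples, controls included, were grown with 5 mU/ml bovine TSH, so the wild type receptor was stimulated too. The labels name 1 line per receptor, so the receptor and the line cannot be told apart. No time of treatment is given, nor whether replicates came from separate cultures; a p-value here therefore measures only the spread between the samples at hand, possibly technical.

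The TSH receptor signals mainly through Gs and adenylyl cyclase, and the cAMP formed activates protein kinase A. The kinase phosphorylates CREB, which binds cAMP response elements (CREs) and switches on genes within minutes without new protein synthesis. Many of these genes are themselves transcription factors or brakes on signalling, and their transcripts are short-lived. In thyroid cells TSH is a known inducer of several of them. The series asked what iodide does to transcripts in a model of early thyroid autonomy.

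The arrays had been scaled to a common trimmed mean of 500.2 before deposit. Median signals were 118 to 127 on the wild type and 138 to 147 on the L629F arrays, and the 25th percentiles 29.3 to 31.6 and 40.8 to 43.1, so dim signals were higher on L629F arrays. Of the 11 thyroid follicular markers on the array 9 were bright enough to be tested, with Tg between 10700 and 16600. Of the markers of other cell types, 0 of 4 for C cells, 2 of 6 for fibroblasts, 1 of 4 for endothelium and 3 of 6 for leucocytes were. In bulk RNA, fewer cells expressing a gene and less RNA per cell cannot be told apart. Levels below are array signals on a linear scale, given in the order replicate 1, replicate 2. Changes are on the scale of log2(signal + 35.3), which understates changes of dim genes, and come from 1 limma fit over 10047 genes with Benjamini-Hochberg adjusted p-values at a threshold of 0.05.

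Stretches of promoter that hold CRE letters are shown first, because CREB binds this element. RefSeq's rat promoter table (build GRCr8) held 10 starts of 8 of the genes, Fos and Nr4a3 having no entry there. The 250 bases before each start were searched on both strands for the full palindrome TGACGTCA and for its core TGACG, which overlaps it. Capitals mark the matches, CGTCA being the core on the other strand. The first listed Crem start, which held the core but not the full palindrome, is not shown.
Dusp1, chr10:17184673-17184744, plus strand: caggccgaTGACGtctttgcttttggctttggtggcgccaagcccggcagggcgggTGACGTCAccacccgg
Crem, the second listed start, chr17:58984733-58984756, plus strand: taggctggTGACGTCActgtgatg
Crem, the third listed start, chr17:58985447-58985470, plus strand: caaagggcTGACGTCAttacattt
Nr4a1, chr7:134259888-134259924, plus strand: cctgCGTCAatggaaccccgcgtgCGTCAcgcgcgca
Nr4a1, chr7:134260048-134260097, plus strand: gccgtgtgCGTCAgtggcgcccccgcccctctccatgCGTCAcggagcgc
Egr1, chr18:26736935-26737024, plus strand: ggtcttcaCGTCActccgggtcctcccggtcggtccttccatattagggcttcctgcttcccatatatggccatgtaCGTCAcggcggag
Nr4a2, chr3:62104888-62104903, minus strand: gggagatcTGACGggc
Junb, chr19:40080963-40080983, plus strand: cctgacagTGACGcgagccgc
The full CRE was found before 3 of the 10 starts, belonging to Dusp1 and Crem, and before 1.59% of the 33469 promoters in the table. The core was found before 8 of the 10 starts, in 6 of the 8 genes (Crem, Dusp1, Egr1, Junb, Nr4a1 and Nr4a2), and before 18.2% of all promoters. Egr1 also held the CArG box, the element bound by serum response factor, at 2 places between its cores (1.5% of all promoters). Nr4a1 held the EGR site GCGNGGGCG (4.29%) and Dusp1 the E-box CACGTG (5.59%). The AP-1 site TGANTCA and the NR4A monomer element AAAGGTCA were in 0 of the 10 stretches, which says only that these letters were not in these windows.

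The signals of all 10 genes are plotted by group.

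**Figure D1:**
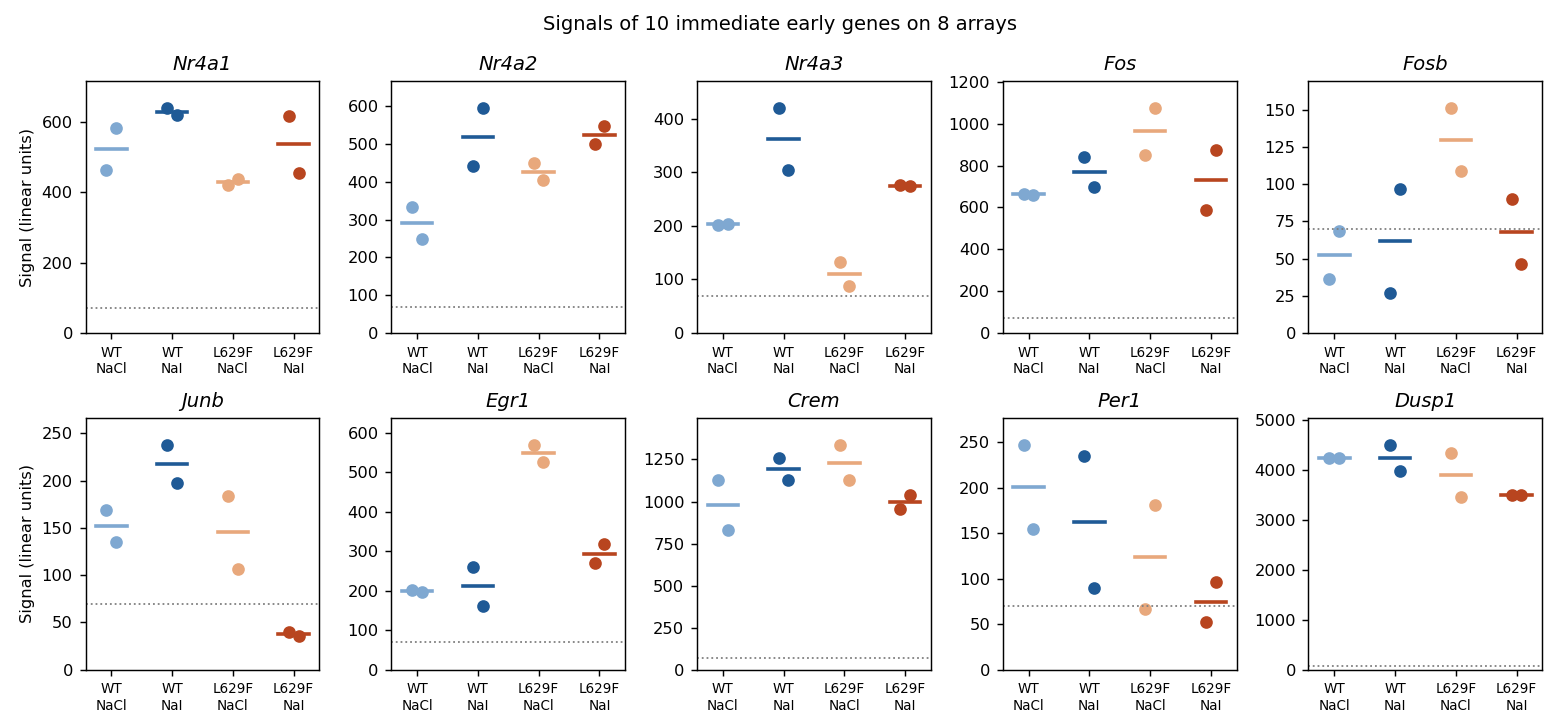
Signal in linear units (y axis, from 0) of the brightest probe set of each gene in the 4 groups (x axis; WT, wild type receptor; NaCl, chloride; NaI, iodide). Points are single arrays, bars the mean of 2, and the dotted line the level of 69.9 below which probe sets were left out. Nr4a3 is higher with iodide in both lines, Egr1 stands highest in L629F cells on chloride, and Junb lies at 40 and 35.6 in L629F cells on iodide.

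The NR4A genes, which encode orphan nuclear receptors that bind DNA without a known hormone ligand, had positive changes with iodide on their brightest probe sets in both lines, and of the 3 only Nr4a3 passed the test, on average over the lines. Nr4a3 stood at 201.9 and 203.8 in wild type cells on chloride and at 419.9 and 303.9 on iodide. The L629F line gave 132.3 and 88.6 on chloride and 275.7 and 273.5 on iodide. All 4 iodide arrays thus lay above all 4 chloride arrays, and the 2 L629F chloride arrays were the lowest of the 8. The mean change over both lines was 0.91 ± 0.19 (SE, 2 arrays per group, adjusted p = 0.0268), the seventh largest rise of all genes tested. This is 1.88-fold with the pseudocount added, while the ratios of raw signals were 1.78 in wild type and 2.49 in L629F cells. The change was 0.72 ± 0.27 in wild type (adjusted p = 0.267) and 1.10 ± 0.27 in L629F cells (adjusted p = 0.186), so neither line passed alone. The difference between the lines was 0.38 (95% interval -0.43 to 1.19, adjusted p = 0.998).

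The rise of Nr4a3 rested on few arrays. It stayed past the threshold without wild type iodide replicate 2 (adjusted p = 0.0366) or L629F chloride replicate 1 (0.0394). It did not without wild type chloride replicate 1 (0.142) or 2 (0.118), wild type iodide replicate 1 (0.0648), L629F chloride replicate 2 (0.118) or L629F iodide replicates 1 (0.0885) and 2 (0.0659). In these 8 fits the change itself ran from 0.80 to 1.02. Its 2 other probe sets gave 0.39 ± 0.24 and 0.53 ± 0.36 in a fit of every kept probe set (adjusted p = 0.533 and 0.584), the same direction and smaller, and averaging a gene's probe sets gave 0.61 (adjusted p = 0.138). The summed C cell markers, none bright enough to be tested, were 73.31 to 81.24 and 113.3 to 138 in wild type and 94.16 to 120.2 and 132.1 to 135 in L629F cells without and with iodide. The summed fibroblast and leucocyte markers were also higher with iodide in wild type cells, without overlap. In L629F cells the salt groups overlapped for both. The part of these lists in the result was not tested. The GAPDH 3′ to 5′ ratio, higher where RNA is degraded, was 1.22 to 2.17 on chloride and 1.4 to 3.13 on iodide arrays. With it as a covariate the change of Nr4a3 was 1.11 (adjusted p = 0.0177).

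Nr4a2 (Nurr1), best known for its part in dopamine neurons, stood at 332.6 and 248.3 on chloride and 443.2 and 595.4 on iodide in the wild type line. Its L629F signals were 449.0 and 405.7, then 500.9 and 547.1. On this brightest probe set the groups did not overlap in either line. The mean change of 0.52 ± 0.15 did not pass (adjusted p = 0.111), and the 95% interval ran from 0.19 to 0.85. Its second probe set gave 0.38 ± 0.23 (adjusted p = 0.526), and there the salt groups overlapped in L629F cells. Nr4a1 (Nur77), the member with 4 CRE cores in the stretches above, stood at 462.1 and 580.4, then 638.2 and 618.1 in wild type cells. The L629F signals were 419.6 and 438.0, then 616.3 and 455.1. Its mean change was 0.27 ± 0.14 (adjusted p = 0.404). On their brightest probe sets all 3 NR4A genes were among the 8.17% of genes whose iodide arrays lay above the chloride arrays in both lines. On the other Nr4a3 probe sets the salt groups overlapped in L629F cells.

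Over both lines, 1 of the 10 genes, Nr4a3, was thus higher and 0 were lower with iodide, where 1.66% of all genes passed (0.547% higher, 1.11% lower). The median change of the 10 was -0.09 and that of all genes 0.01. In wild type cells limma called 0 of the 10, against 0.468% of all genes called, and 2 were under an unadjusted p of 0.05, as were 12.6% of all genes. In L629F cells it called 0, against 0.0896% of all genes, and 3 were under 0.05, against 8.21%. On average 3 were under 0.05, against 15.2%.

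The AP-1 genes encode the Fos and Jun families of leucine zipper proteins, which pair to bind DNA. On average over the lines the changes of Fos, Fosb and Junb with iodide were not past the threshold, and their signs differed between the lines. The wild type change of Fosb, 0.07 ± 0.47, was smaller than its standard error. Junb, often a restraint on its relative c-Jun, stood at 168.6 and 134.6 in wild type cells on chloride and at 238.0 and 198.0 on iodide. In the L629F line it stood at 184.1 and 107.0 on chloride and at 40 and 35.6 on iodide. Both L629F iodide arrays were the lowest of the 8. Both lie below 69.9, the level of the filter on dim probe sets, and the size of any change to them depends on the pseudocount. The change with iodide was 0.44 ± 0.34 in wild type (adjusted p = 0.633) and -1.27 ± 0.34 in L629F cells (adjusted p = 0.256).
The difference between the lines was -1.71 ± 0.47 (unadjusted p = 0.00298, adjusted p = 0.993), so it did not pass. Junb was 1 of the 2.32% of genes whose iodide arrays lay wholly above chloride in wild type and wholly below it in L629F cells.

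Between the lines, Junb passed the test on iodide, where L629F cells were lower, with a difference of -1.79 ± 0.34 (adjusted p = 0.0399), a ratio of raw signals of 0.174. Without iodide the lines differed by -0.07 ± 0.34 (adjusted p = 0.947), and the mean over both salts was -0.93 ± 0.24 (adjusted p = 0.0504). The size on iodide ran from -2.49 with a pseudocount of 1 to -1.20 with 100. Leaving out 1 array kept the call only without L629F chloride replicate 2 (adjusted p = 0.0483). It was lost without wild type chloride replicate 1 (0.0975) or 2 (0.0977), wild type iodide replicate 1 (0.127) or 2 (0.117), L629F chloride replicate 1 (0.0589), and L629F iodide replicate 1 (0.124) or 2 (0.164). In the fit of every kept probe set it did not pass either (adjusted p = 0.0593). The summed endothelial markers, of which only Vwf was bright enough to be tested, were 148.6 to 188.7 in L629F cells on iodide and 228.9 to 436.9 in the other groups, and their part in the result was not tested. On iodide arrays the sums of the other marker lists overlapped between the lines.

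Fos, the partner of the Jun proteins and the classical CRE target, stood at 664.1 and 660.3, then 842.0 and 695.4 in the wild type line. The L629F line read 852.9 and 1075.1, then 588.2 and 872.7, so those salt groups overlapped. The change with iodide was 0.20 ± 0.21 in wild type (adjusted p = 0.745) and -0.40 ± 0.21 in L629F cells (adjusted p = 0.658). On chloride, L629F cells lay above wild type cells without overlap, by 0.51 ± 0.21 (adjusted p = 0.31). A second Fos probe set, with a mean signal of 49, was too dim to be tested. Fosb, a Fos relative with lasting effects in neurons, was only just bright enough, with a mean of 71.3 against the level of 69.9, both taken on the log2 scale and turned back to signal. Its signals were 36.2 and 68.3, then 26.9 and 96.6 in wild type cells, and 151.0 and 108.5, then 89.9 and 46.3 in L629F cells. The L629F chloride pair was highest, and Fosb was bright enough only through it, the mean of the other 3 groups being 57.1. A difference from that pair was thus built into the choice. It was 0.93 ± 0.47 against wild type chloride (adjusted p = 0.409).

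Egr1, a zinc finger factor induced by both cAMP and growth factor signals, was higher in L629F than in wild type cells. It stood at 201.9 and 195.6 in wild type cells on chloride and at 260.8 and 161.6 on iodide. The L629F arrays read 569.1 and 525.1 on chloride and 269.4 and 317.1 on iodide. All 4 L629F arrays lay above all 4 wild type arrays, and the L629F chloride pair was highest. The mean difference between the lines was 0.88 ± 0.17 (adjusted p = 0.0171). It was 1.31 ± 0.25 without iodide (adjusted p = 0.0388), a ratio of raw signals of 2.75, and 0.44 ± 0.25 with iodide (adjusted p = 0.49), a ratio of 1.39. In L629F cells the change with iodide was -0.83 ± 0.25 (unadjusted p = 0.00487, adjusted p = 0.342), and in wild type cells 0.05 ± 0.25 (adjusted p = 0.969). The difference of -0.87 ± 0.35 between these changes did not pass (unadjusted p = 0.0257, adjusted p = 0.993). The L629F chloride arrays enter both the receptor and the iodide values, so these are not separate observations.

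The mean Egr1 difference stayed past the threshold without wild type iodide replicate 1 (adjusted p = 0.0104) or 2 (0.0442) or L629F iodide replicate 1 (0.0427). It was lost without wild type chloride replicate 1 (0.0684) or 2 (0.0842), L629F chloride replicate 1 (0.0748) or 2 (0.0569), or L629F iodide replicate 2 (0.056), with sizes of 0.73 to 1.02 over the 8 fits. The call without iodide stayed without wild type iodide replicate 1 (0.0208) or 2 (0.0183). It was lost without wild type chloride replicate 1 (0.259) or 2 (0.245), L629F chloride replicate 1 (0.27) or 2 (0.173), or L629F iodide replicate 1 (0.0501) or 2 (0.0504). The summed leucocyte markers, 3 of 6 bright enough to be tested, were 263.9 to 266.8 on wild type chloride, 307.7 to 415.1 on wild type iodide, 377.3 to 396.3 on L629F chloride and 354.2 to 421.6 on L629F iodide arrays. On chloride the summed fibroblast markers were also higher in L629F cells (341.7 to 400 against 300.6 to 325.8). So were those of C cells (94.16 to 120.2 against 73.31 to 81.24), while the endothelial sums overlapped. The part of these lists in the result was not tested. For actin the same kind of ratio, 3′ over 5′, stood at 2.23 and 5.05 on wild type chloride and 5.93 and 7.9 on L629F chloride arrays, without overlap, and its part was not tested. The GAPDH ratio was 1.22 and 1.55, then 1.54 and 2.17 on these arrays, and with it as a covariate the difference without iodide was 1.49 (adjusted p = 0.00812).

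Crem encodes activators and repressors that bind CREs, among them ICER, a repressor made from an internal start that cAMP induces. Its brightest probe set stood at 1129.0 and 833.6, then 1258.6 and 1127.2 in wild type cells, and at 1337.6 and 1126.2, then 955.7 and 1035.9 in L629F cells. The change with iodide was 0.29 ± 0.18 in wild type (adjusted p = 0.545) and -0.29 ± 0.18 in L629F cells (adjusted p = 0.718). The difference between them, -0.58 ± 0.25, had an unadjusted p of 0.0394 and an adjusted p of 0.993. The 5 kept probe sets of Crem gave mean iodide changes of -0.00, -0.15, -0.34, -0.42 and 0.33, so they did not share a sign, and none passed. The annotation does not say which probe set reads ICER, and the sixth probe set (mean signal 23.9) was too dim.

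Per1, a core clock repressor whose promoter is known to take CREB input, varied widely within groups. It stood at 247.1 and 155.0, then 235.0 and 90.0 in wild type cells, and at 66.8 and 181.1, then 52.1 and 96.2 in L629F cells. The salt groups overlapped in both lines. The mean change with iodide was -0.40 ± 0.32 (adjusted p = 0.605) and the mean difference of L629F from wild type cells -0.71 ± 0.32 (adjusted p = 0.239).

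Dusp1, a nuclear phosphatase that switches off MAP kinases, was bright on every array. Its signals were 4241.9 and 4239.0, then 4498.0 and 3981.0 in wild type cells, and 4342.0 and 3462.4, then 3490.6 and 3498.6 in L629F cells. The mean change with iodide was -0.08 ± 0.10 (95% interval -0.29 to 0.14, adjusted p = 0.78). Its second probe set stood at 514.4 and 461.9, then 336.1 and 160.7 in wild type cells, and at 303.3 and 201.8, then 224.9 and 278.7 in L629F cells. That probe set gave -0.95 ± 0.30 with iodide in wild type cells (unadjusted p = 0.00774, adjusted p = 0.243), where the brighter one gave -0.00 ± 0.14. The probe sets of Dusp1 thus gave different sizes, and neither passed.

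**Figure D2:**
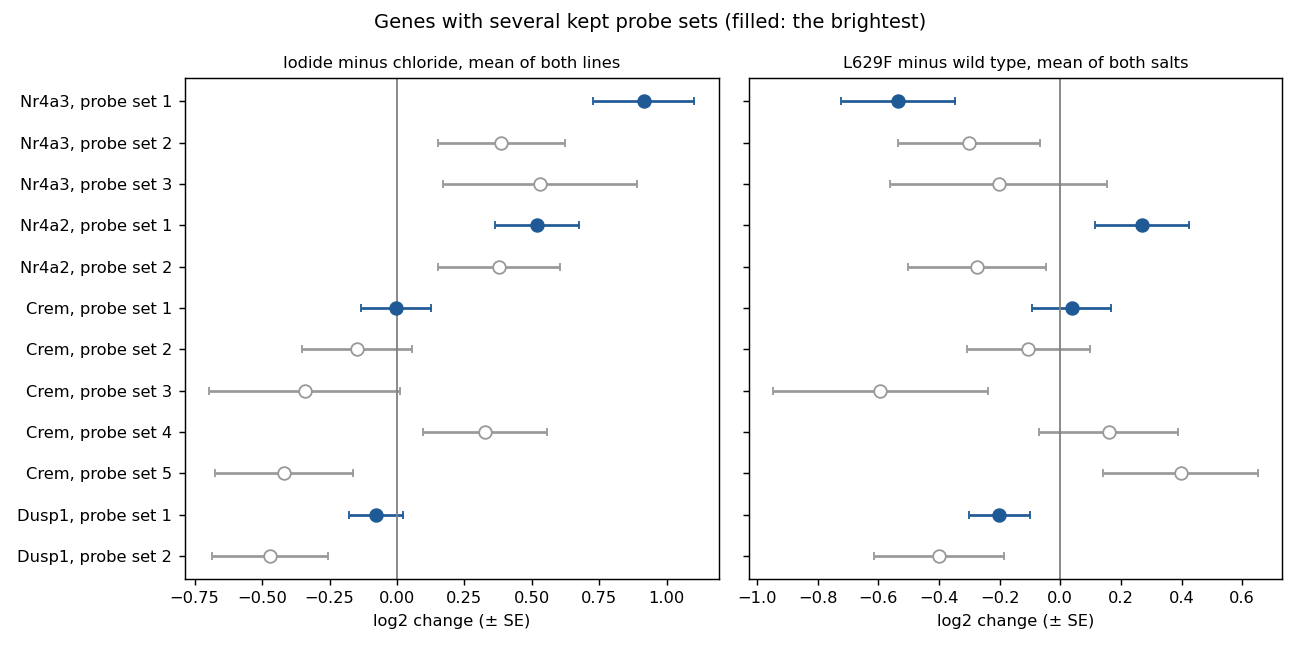
Mean log2 change with iodide over both lines (left) and mean log2 difference of L629F from wild type cells over both salts (right) on each kept probe set of the genes that have more than 1; bars are standard errors and filled points mark the brightest probe set. With iodide the 3 Nr4a3 probe sets lie at 0.91, 0.39 and 0.53 and the 5 Crem probe sets on both sides of 0, while between the lines the Nr4a2 probe sets lie at 0.27 and -0.28.

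Across the 10 genes, the changes with iodide were positive in both lines for Nr4a1, Nr4a2 and Nr4a3, as for 32.5% of all genes. Crem, Egr1, Fos, Fosb and Junb were positive in wild type and negative in L629F cells, as 20.7% of all genes were. In wild type cells the changes of Egr1 (0.05 ± 0.25), Fos (0.20 ± 0.21) and Fosb (0.07 ± 0.47) were smaller than their standard errors, so these signs are uncertain. Crem had this pattern on its brightest probe set but not on every kept one. Fosb was bright enough only through its L629F chloride pair, so its negative change in L629F cells was favoured by the choice. It also enters the medians that follow. Dusp1 and Per1 were negative in both (28% of all genes), Dusp1 by only -0.00 ± 0.14 in wild type cells, and 0 had the opposite pattern (18.8%). The median change was 0.23 in wild type cells, against 0.02 for all genes, and -0.35 in L629F cells, against 0.01. The test of the difference between the lines called 0 of the 10 by limma, with 3 under an unadjusted p of 0.05, and 0% of all genes, with 419 (4.17%) under 0.05. Groups without overlap were seen for 5 genes higher and 0 lower in wild type cells (23.7% and 19.6% of all genes) and for 3 higher and 4 lower in L629F cells (20.2% and 18.5%), Fosb being 1 of the 4.

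**Figure D3:**
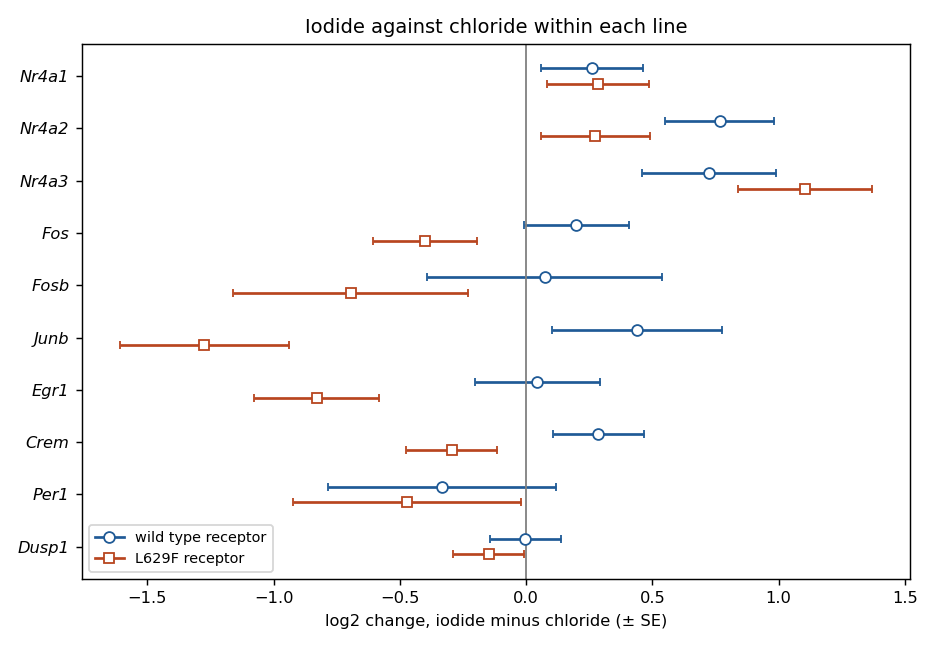
Log2 change with iodide (x axis) of the 10 genes in wild type cells (circles) and L629F cells (squares); bars are standard errors, and open points did not pass the threshold within a line. All points are open, the 3 NR4A genes lie right of 0 in both lines, and Junb lies at 0.44 in wild type and -1.27 in L629F cells.

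Between the lines, limma called 1 of the 10 genes higher and 0 lower on average over both salts, where 3.16% of all genes passed (2.06% higher, 1.09% lower). Under an unadjusted p of 0.05 were 4 of the 10 and 19.8% of all genes. The gene called was Egr1. Of all genes 207 were higher and 110 lower, but 145 and 1236 once each array was centred on its median over all probe sets, which moved the median of all genes from -0.00 to -0.17. Under that centring Egr1 stayed higher (0.71, adjusted p = 0.0263), while Junb (-1.10, 0.0141), Nr4a3 (-0.70, 0.0316) and Dusp1 (-0.37, 0.0338) passed as lower. Without iodide, 1 gene was higher (0.488% of all genes passed), with 4 of the 10 and 13.6% of all genes under 0.05. With iodide, 1 gene, Junb, was lower (0.508% of all genes passed), with 1 of the 10 and 12.1% of all genes under 0.05. Groups did not overlap for 4 genes higher, Fosb among them, and 2 lower without iodide (24.8% and 23% of all genes) and for 1 higher and 5 lower with it (19.8% and 20.7%). With all 4 arrays of each line, 1 gene, Egr1, was higher without overlap and 0 lower (5.68% and 4.65%). For iodide these counts were 1, Nr4a3, and 0 (4.56% and 2.99%). Nr4a3 in L629F cells differed by -0.73 ± 0.27 without iodide (adjusted p = 0.261) and by -0.34 ± 0.27 with it (adjusted p = 0.642).

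**Figure D4:**
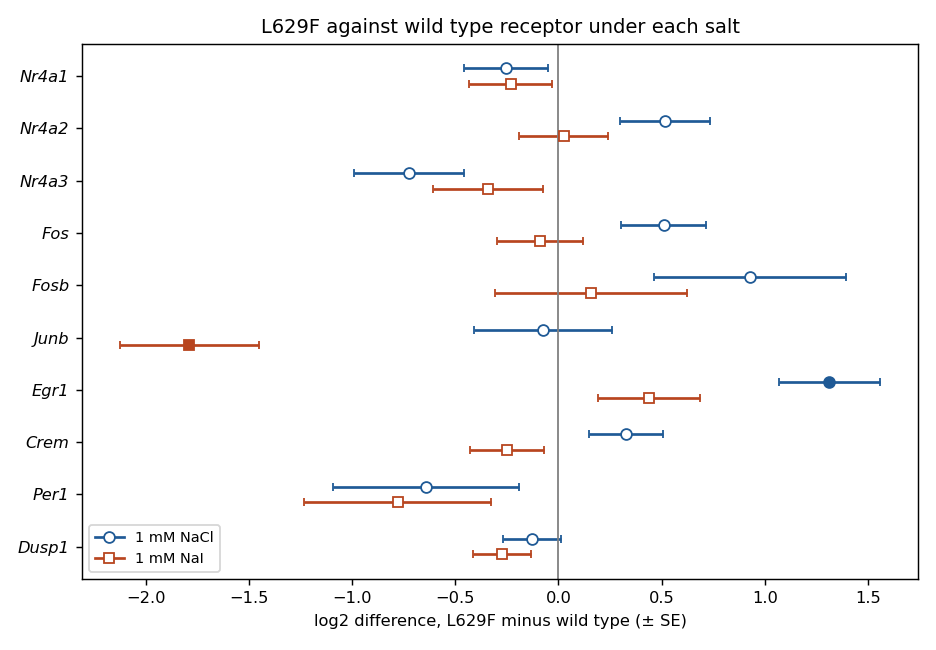
Log2 difference of L629F from wild type cells (x axis) for the 10 genes on chloride (circles) and on iodide (squares); bars are standard errors and filled points passed the threshold. Egr1 lies at 1.31 on chloride, filled, and 0.44 on iodide, and Junb at -0.07 and, filled, -1.79.

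Other genes of the early response were read from 6 lists. Of the 7 other AP-1 subunits tested, 1 was lower with iodide (1.11% of all genes), and 2 were under an unadjusted p of 0.05 in limma (15.2%). The gene called was Jun, the main partner of Fos. Its signals were 1393.9 and 1365.2, then 1175.4 and 925.3 in wild type cells, and 1533.2 and 1599.6, then 1059.6 and 1018.5 in L629F cells. The groups did not overlap, and the mean change was -0.48 ± 0.11 (adjusted p = 0.04999). It passed in 1 of the 8 fits that left out an array, and averaging its probe sets gave -0.24 (adjusted p = 0.323). With the GAPDH ratio as a covariate it was -0.38 (adjusted p = 0.114), and it passed in 3 of the 10 alternatives that kept every array. Of 13 other early transcription factors, 0 passed with iodide on average (4 under an unadjusted p of 0.05 in limma, as were 15.2% of all genes). Between the lines, 5 of the 13 were under an unadjusted p of 0.05 in limma, against 19.8% of all genes. Past the threshold 1 was higher, Ier2 (0.58 ± 0.14, adjusted p = 0.0433), and 3 were lower (2.06% and 1.09% of all genes). Those lower were Klf2, a Krüppel-like factor (-0.69 ± 0.10, adjusted p = 0.00362), its relative Klf6 (-0.56 ± 0.14, 0.0451) and the growth regulator Myc (-0.49 ± 0.12, 0.0479). Leaving out 1 array kept Klf2 in 8 of 8 fits and each of the other three in 1, and averaging probe sets gave -0.29 for Klf2 (adjusted p = 0.207) and -0.26 for Klf6 (0.299).

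Of 19 early effectors tested, 1 was higher and 1 lower with iodide on average (0.547% and 1.11% of all genes). Under an unadjusted p of 0.05 in limma were 10 of the 19, against 15.2% of all genes. Odc1, which makes polyamines, stood at 7677.8 and 8129.6, then 9776.1 and 12641.5 in wild type cells, and at 6572.6 and 6500.6, then 8509.3 and 8955.8 in L629F cells, a change of 0.45 ± 0.10 (adjusted p = 0.029). With the GAPDH ratio as a covariate this was 0.32 (adjusted p = 0.075). Gadd45a, a stress-induced growth brake, stood at 3102.7 and 2634.7, then 2073.4 and 1603.4 in wild type cells, and at 1602.7 and 1199.9, then 995.4 and 927.9 in L629F cells. It was lower with iodide, with a change of -0.58 ± 0.13 (adjusted p = 0.0403), or -0.37 with the covariate (adjusted p = 0.11). Its iodide call stayed in 2 and that of Odc1 in 1 of the 8 fits that left out an array. Between the lines 1 of the 19, Gadd45a, passed as lower on average (1.09% of all genes), and 6 were under an unadjusted p of 0.05 in limma (19.8%). Gadd45a was lower in L629F cells, with a mean difference of -0.96 ± 0.13 (adjusted p = 0.00164), a call kept in all 8 of those fits. It also passed without iodide (-1.02, adjusted p = 0.0286) and with it (-0.90, 0.0472). Klf2 passed with iodide too (-0.75, adjusted p = 0.0463), but averaging its probe sets gave -0.12 there (adjusted p = 0.833). Leaving out 1 array, the Gadd45a call without iodide stayed in 4 of 8 fits (adjusted p up to 0.303), and neither call with iodide stayed in any.

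Of 17 genes of the CREB family, its coactivators and cAMP feedback, 0 passed in limma with iodide on average (3 under an unadjusted p of 0.05, against 15.2% of all genes) and 0 between the lines on average (2 under 0.05, against 19.8%). The same held for the 7 other MAP kinase phosphatases (1 and 0 under 0.05) and for 16 other clock genes (1 and 1 under 0.05). With iodide, the medians of these lists were -0.06, -0.00 and -0.03, against 0.01 for all genes. Those of the AP-1, early transcription factor and early effector lists were -0.17, 0.05 and -0.17.

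**Figure D5:**
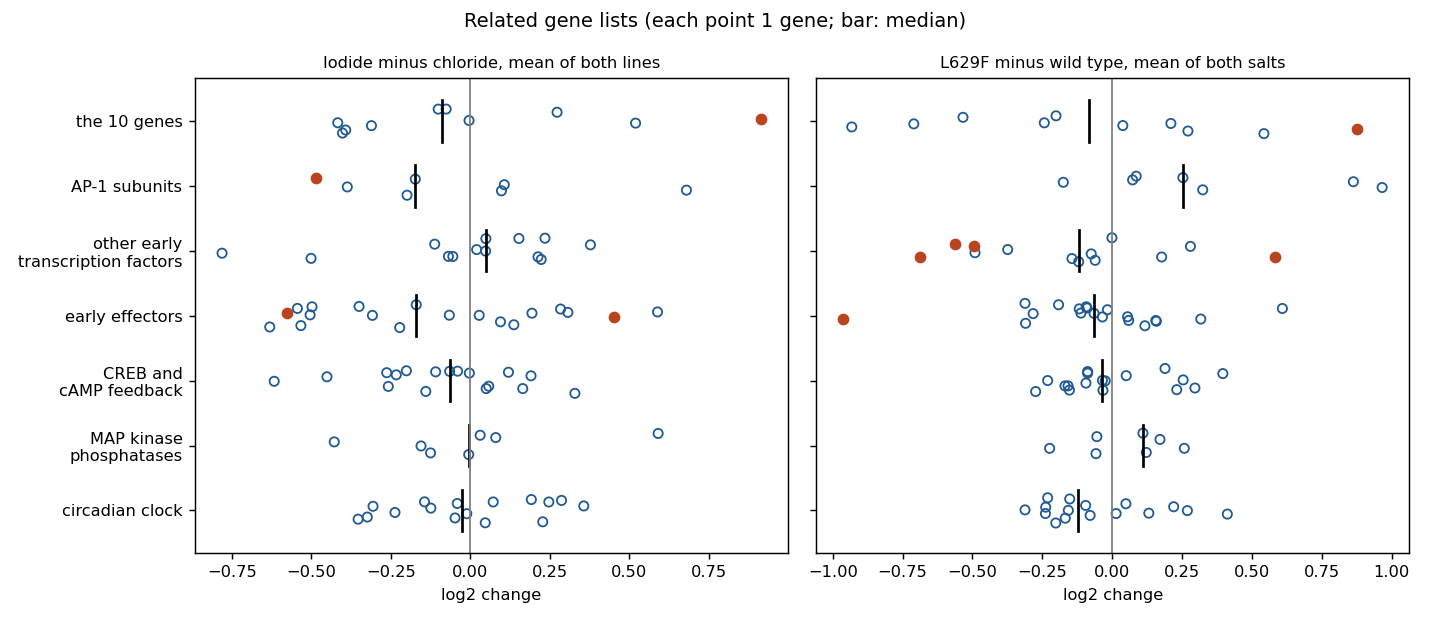
Mean log2 change with iodide over both lines (left) and mean log2 difference of L629F from wild type cells over both salts (right) for each tested gene of the 10 and of the 6 related lists; each point is a gene, bars are medians and filled red points passed the threshold. Those that passed are Nr4a3, Jun, Odc1 and Gadd45a on the left and Egr1, Ier2, Klf2, Klf6, Myc and Gadd45a on the right.

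As a description over the 8 arrays, the genes whose log2 values followed Nr4a3 most closely were Oaz1, Adsl and Aup1 (Pearson r = 0.981 each). Those nearest to Egr1 were S100a4 (0.979), Ctsh (0.978) and Ifi44 (0.977), and those nearest to Junb were Med21 (0.978), Camkk2 (0.959) and Speg (0.957). They were picked as the highest of all genes tested, so these values are no test.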

How the data were processed

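Per the labels and the submitters' processing notes, the authors deposited MAS5 signal intensity values on a linear scale, 1 column per array (version, genome build and detection calls not given in the sources used here). Probe sets were named from the platform annotation: 20832 had 1 gene symbol, 436 several and 9831 none. The pseudocount of 35.3 is the 25th percentile of all signals. The dimmest 40% of probe sets and controls were left out, the brightest probe set stood for a gene, and the fit used limma 3.58.1 in R 4.3.3 (lmFit, eBayes with trend, 1 coefficient per group, 4 residual and 9.52 prior degrees of freedom, two-sided) over 10047 genes. No further scaling was applied. With 2 arrays per group, their number limits the precision: the median standard error was 0.20 log2 within a line and 0.14 for an average. On simulated data for the mean iodide change, 63.6% of genes changed by 0.5, 94.2% by 1 and 100% by 2 log2 were recovered in 10 runs of 10047 genes, with 3.86% false calls. For the change within wild type cells, of 2 against 2 arrays, these shares were 25.4%, 79.2% and 100%, with 3.97% false calls. In the simulation genes of like brightness shared the same spread and the lines did not differ. Real genes vary more in their spread, so these shares may overstate recovery in the real data. The named genes are all 10 genes, up to 4 per related list past the threshold by smallest p, and the 3 most alike per called gene. The genes and lists were chosen with earlier results of these data known. Alternatives were another pseudocount, filter, scaling, probe set rule, variance trend, replicate block, RNA quality covariate and leaving out each array. The alternatives for related genes were chosen after seeing the data.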

Additional observations from a re-analysis of the deposited data

How the results depend on the processing

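The number of the 10 genes past the threshold depended on the settings wherever it was 1. For iodide on average it was 0 without the dim-probe filter, with a filter on the dimmest 60% (where Nr4a3 was not tested), after averaging the probe sets of each gene and without the intensity trend, and 0 to 1 when an array was left out. For the receptor on average it was 0 with no filter, 4 with centred arrays, 2 with quantile normalization, the mean of probe sets or no trend, and 0 to 1 without an array. For the receptor without iodide it was 0 with no filter, centred arrays or no trend, and 0 to 1 without an array. For the receptor with iodide it was 0 with no filter, 0 with the dimmest 60% filtered out, where Junb was not tested, and 0 to 1 without an array. The other 3 comparisons stayed at 0 under all alternatives run, and no called value changed sign. Same-numbered arrays deviated together with correlations of 0.042 to 0.224 between groups, so the numbers were not taken as pairs. With the replicate number as a block, the receptor on average gave 2 genes (Egr1 and Junb) and the other counts were the same. Over all genes, the block raised the iodide calls from 55 higher and 112 lower to 251 and 276, and no trend lowered them to 4 and 14. Signals near background, as for Fosb and for Junb in L629F cells on iodide, limit the size of their changes.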
